A study of Canis lupus familiaris with 33 samples.

Results

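The 8 genes described here, CDH19, SOX10, NCAM1, NGFR, PRX, PMP22, GFRA3 and PLPPR4, are genes of Schwann cells and nerve among the 25096 genes of a TMM-normalized RNA-seq table of canine bladder. They were taken from the table by gene symbol, and each symbol had 1 row. They were chosen with their tumor and normal values known, so the difference between tumors and normals is given for them as a description, with no test. The study sequenced RNA from 29 invasive urothelial carcinomas (iUC), biopsied by cystoscopy from pet dogs that had received no treatment, and from 4 pieces of bladder mucosa dissected from dogs without bladder disease. Each tumor came from a different dog, and all libraries were run in 1 sequencing batch. The samples are named normal 1 to 4 and tumor 1 to 29, and the labels used here give no age.

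The bladder wall is supplied by autonomic and sensory nerves, whose fibers run through the smooth muscle and end beneath and within the urothelium. Schwann cells accompany these axons. Some wrap 1 large axon in myelin, and others enclose bundles of thin axons without myelin. Schwann cells arise from the neural crest under the transcription factor SOX10, and they respond to neuregulin from axons through the receptor ERBB3, while neurons and glia respond to neurotrophins and to ligands of the GDNF family through NTRK, NGFR, RET and GFRA receptors.

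The values are on a log2 scale and are centred on the gene's median among the 33 samples, so 0 is the level of the middle sample and values of different genes are not levels on one scale. For CDH19, SOX10, NCAM1 and PLPPR4, at least 2 samples shared exactly the lowest value, which corresponds to a normalized value of 1. The height of a sample above that lowest value could be read for these 4 genes. NGFR, PRX, PMP22 and GFRA3 had no shared lowest value and therefore no height. Heights are not corrected for gene length, so where they are set beside those of silent genes the position is a description and not an order of expression levels. In the Ensembl annotation of the file the members are ENSCAFG00000000052 (CDH19), ENSCAFG00000001436 (SOX10), ENSCAFG00000013844 (NCAM1), ENSCAFG00000016934 (NGFR), ENSCAFG00000005350 (PRX), ENSCAFG00000017913 (PMP22), ENSCAFG00000001215 (GFRA3) and ENSCAFG00000020056 (PLPPR4).

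The normal and tumor libraries differed across the whole table. The worth of 1 read pair was 2.90 to 3.62 normalized units in normals and 1.64 to 2.48 in tumors. It was estimated from the commonest low step of each library. At their lowest value lay 755 to 1019 genes in normals and 3699 to 8175 in tumors. Of 24471 genes tested with limma (Benjamini-Hochberg adjusted p of at most 0.05 and at least 2-fold), 45.8% were lower and 10.7% higher in tumors, and the median difference over all of them was -0.84 on the log2 scale. Genes with no known activity in bladder (230 genes, of which 152 encode olfactory receptors) showed the same contrast. Between 98.5 and 100% of those with a shared lowest value lay above it in normals, against 8.04 to 90.5% in tumors. In 5 tumors (8, 14, 17, 25 and 28) that share was over 50%.

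The sampled tissue also differed. All 13 smooth muscle markers measured were lower in tumors, and their mean value was 3.90 to 5.79 in normals and -1.45 to 2.99 in tumors. Of 12 fibroblast markers, 10 were lower in tumors. Of 13 urothelial markers, 9 were higher and 1 lower in tumors, and their mean value was -1.77 to -0.48 in the normals and -1.28 to 0.65 in tumors. Of 12 endothelial markers, 1 was higher and none lower by limma, also at an unadjusted p under 0.05. None of these markers lay at the lowest value in all normals. Against the tumors, the normal samples, labelled as urothelial cells, were high in smooth muscle and fibroblast markers and low in urothelial ones in these values. With samples centred on silent genes, whose median difference was -5.17, 1 smooth muscle marker was lower and 3 were higher in tumors, 9 fibroblast markers were higher and none lower, and 12 urothelial and all 12 endothelial markers were higher. The counts of muscle, fibroblast and endothelial markers thus depended on the scaling, and the part of tissue composition in the values below was not tested. In bulk tissue, fewer cells of a type and less RNA per cell cannot be told apart.

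Among the 8 members, 6 were lower in tumors by the limits used for all genes (45.8% of all genes) and none was higher (10.7% of all genes; 0 also at an unadjusted p under 0.05). Because the members were chosen on this contrast, nothing is read from these counts. Their median difference was -3.52, beside -0.84 over all genes. For 5 of the members, CDH19, SOX10, NCAM1, GFRA3 and PLPPR4, every tumor lay below every normal, as it did for 28.5% of all genes, and for no member did every tumor lie above every normal (7.63% of all genes).

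**Figure D1:**
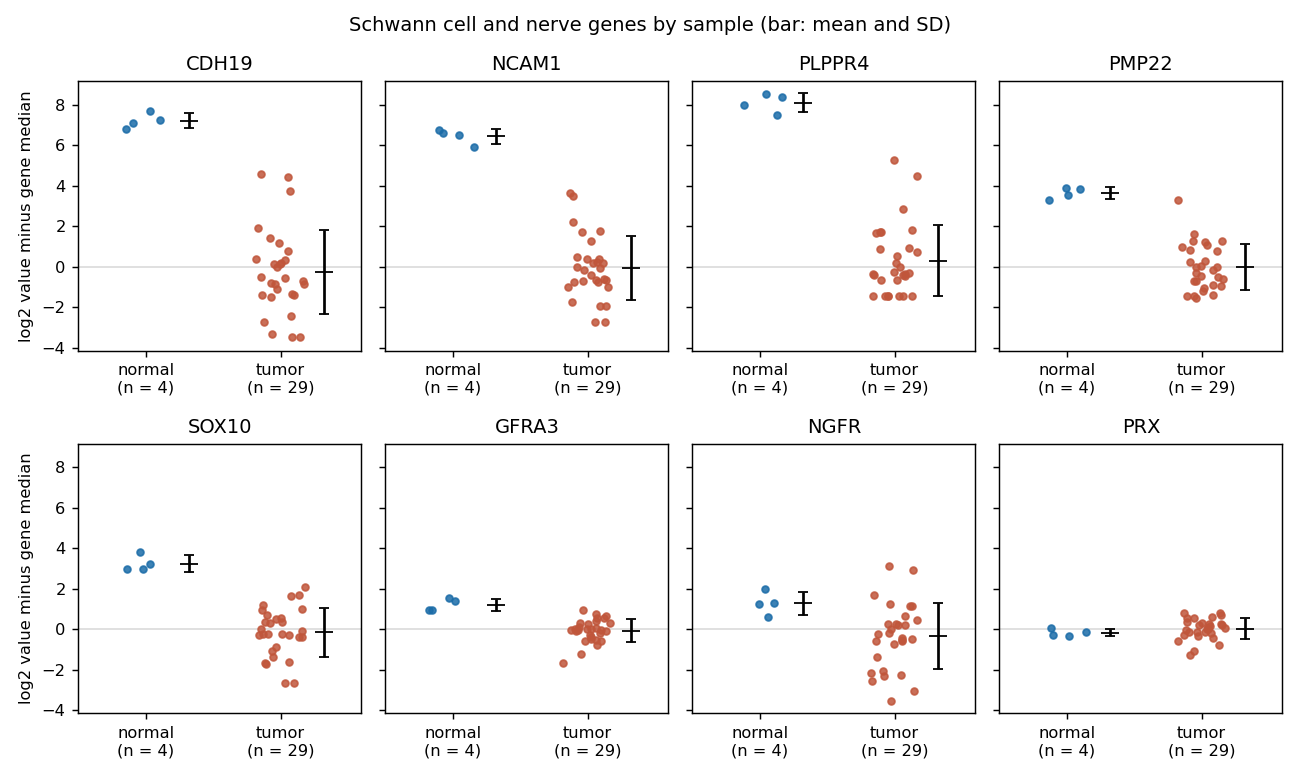
Values of the 8 members in 4 normals and 29 tumors, as log2 normalized values centred on the median of each gene. Each point is 1 sample and the bar is the group mean with its SD. For CDH19, SOX10, NCAM1, GFRA3 and PLPPR4 no tumor reaches the lowest normal, while NGFR and PRX overlap.

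The adhesion molecules CDH19 and NCAM1 had far higher values in normals. CDH19 encodes cadherin-19, a classical type II cadherin of the Schwann cell lineage. Its values were 6.81, 7.07, 7.24 and 7.71 in normals 1 to 4, and in tumors the lowest was -3.46, the median -0.56 and the highest 4.57. The groups did not overlap, and the tumors spread over more than the distance that separated the highest tumor from the lowest normal. The difference of the means was -7.46 (SE 1.02), from 7.21 ± 0.38 (SD, n = 4) to -0.25 ± 2.08 (SD, n = 29). In read pairs, CDH19 corresponded to 357 to 634 in normals and to 0 to 145 in tumors, with a median of 3.5 and 2 tumors at the lowest value. The tumors highest in CDH19 were 28, 29, 15, 25 and 13.

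NCAM1 encodes the neural cell adhesion molecule, which is carried by neurons, by Schwann cells without myelin and by natural killer cells. Its values were 5.89, 6.73, 6.52 and 6.60 in normals 1 to 4, against -2.75 at the lowest, -0.19 at the median and 3.61 at the highest tumor. Normal 1 was the lowest normal and still lay above every tumor. The means were 6.44 ± 0.37 and -0.08 ± 1.57, a difference of -6.51 (SE 0.77). Read pairs ran from 115 to 235 in normals and from 0 to 45.3 in tumors, with 2 tumors at the lowest value. Tumors 15, 29, 23, 25 and 13 led NCAM1, and 15, 29, 25 and 13 of them also led CDH19.

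SOX10, the transcription factor of neural crest and Schwann cells, was low in read pairs in both groups. It had values of 3.23, 2.96, 2.99 and 3.82 in normals 1 to 4 and of -2.67 at the lowest, -0.21 at the median and 2.07 at the highest tumor. The normals lay close together and above all tumors. The difference was -3.40 (SE 0.60), from 3.25 ± 0.40 to -0.15 ± 1.21. These values rest on 16.3 to 24.7 read pairs in normals and on 0 to 13.2 in tumors, with a median of 3 pairs. Its highest tumors were 21, 24, 1, 22 and 29, and tumor 28, the highest in CDH19, was with tumor 26 at the lowest value of SOX10.

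The myelin genes PMP22 and PRX were unlike each other. PMP22 encodes peripheral myelin protein 22, a membrane protein of compact myelin that is also made by fibroblasts and epithelia. Its values were 3.27, 3.89, 3.51 and 3.82 in normals 1 to 4 and -1.53 at the lowest, -0.16 at the median and 3.29 at the highest tumor. Tumor 2, at 3.29, lay within the range of the normals, and the other 28 tumors lay below it. The means were 3.62 ± 0.29 and -0.02 ± 1.14, a difference of -3.64 (SE 0.56).

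PRX encodes periaxin, a scaffold protein of myelinating Schwann cells. It had values of -0.12, -0.26, -0.35 and 0.09 in the normals and ran from -1.25 over a median of 0.05 to 0.81 in tumors. Of the 29 tumors, 13 lay above every normal, 11 within their range and 5 below. The difference was 0.18 (SE 0.26), from -0.16 ± 0.19 to 0.02 ± 0.51, and it became -0.12 in the table normalized by DESeq.

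The receptors NGFR and GFRA3 had differences nearer to 0 in the TMM values than those of the other members except PRX. NGFR encodes the p75 neurotrophin receptor, found on Schwann cells, on sensory and sympathetic neurons and on basal cells of several epithelia. Its values were 0.60, 2.00, 1.30 and 1.24 in normals 1 to 4 and -3.55 at the lowest, -0.23 at the median and 3.13 at the highest tumor. The groups overlapped, with 22 tumors below every normal, 5 within their range and 2 above it, namely tumors 18 (3.13) and 11 (2.94). The difference was -1.62 (SE 0.80), from 1.28 ± 0.57 to -0.33 ± 1.63. From the values normalized by DESeq the difference was -1.92.

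GFRA3 encodes the co-receptor for artemin, a ligand of the GDNF family that acts on sensory and sympathetic neurons. Values of 1.38, 0.96, 0.95 and 1.53 in the normals stood beside -1.67 at the lowest, -0.02 at the median and 0.93 at the highest tumor. No tumor reached the lowest normal, but the gap was 0.02. The difference was -1.27 (SE 0.29), from 1.20 ± 0.30 to -0.07 ± 0.57.

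PLPPR4 encodes a phospholipid phosphatase-related membrane protein of neurons. Its values were 7.48, 8.00, 8.38 and 8.52 in normals 1 to 4, and in tumors -1.45 at the lowest, -0.30 at the median and 5.27 at the highest. Every tumor was at least 2 log2 units below the lowest normal. The difference was -7.80 (SE 0.86), from 8.10 ± 0.47 to 0.30 ± 1.73. It corresponded to 141 to 313 read pairs in normals and to 0 to 64.1 in tumors, with a median of 1 and 7 tumors at the lowest value. Tumors 29, 15, 25, 14 and 17 led PLPPR4.

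How far these members stand from genes without activity in bladder was read from the 199 silent genes that had a shared lowest value. In normals the mean height of the silent genes had a median of 5.76 (most genes between 2.87 and 6.99, highest 8.28), and in tumors of 0.40 (most between 0.15 and 2.06, highest 4.55), where "most" leaves out 5% of genes at either end. The mean height of CDH19 in normals was 10.66, that of PLPPR4 was 9.54 and that of NCAM1 was 9.18, and no silent gene was as high. SOX10 stood at 5.92 in normals, within the silent genes, of which 83 were higher.

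In tumors the picture was different for SOX10. Its mean height there was 2.52, 2.12 above the silent median, and 5 of 199 silent genes were higher. For CDH19 (3.21), NCAM1 (2.67) and PLPPR4 (1.74), 3, 5 and 13 silent genes were higher in tumors. The differences of silent genes had a median of -5.31 (most between -6.29 and -2.25). None of them had a more negative difference than CDH19 or PLPPR4, 7 had one more negative than NCAM1 and 171 one more negative than SOX10. Such a gene cannot fall by more than its own height in normals, so the order of the differences partly restates that of the heights in normals. These are descriptions of the same contrast that chose the members, with lengths not taken into account.

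**Figure D2:**
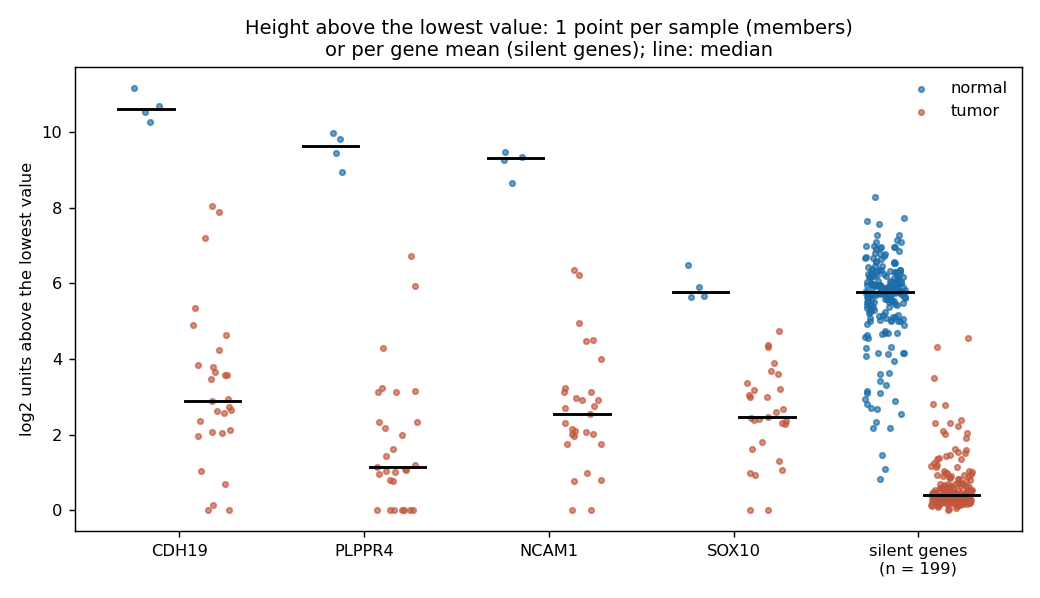
Height above the lowest value, in log2 units, of CDH19, SOX10, NCAM1 and PLPPR4 in each of 4 normals and 29 tumors, beside 199 silent genes (1 point per gene mean). Lines are medians, and CDH19, NCAM1 and PLPPR4 lie above every silent gene in normals (means 10.66, 9.18 and 9.54), and SOX10 (5.92) lies among them.

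The direction of several members depended on the scaling. When each sample was centred on its silent genes, the difference was 1.80 for SOX10, 1.56 for PMP22, 3.93 for GFRA3, 3.58 for NGFR and 5.39 for PRX, all higher in tumors. The differences of CDH19 (-2.26), PLPPR4 (-2.60) and NCAM1 (-1.31) were negative. The median over all genes moved by the same centring to 4.36. The median height of the 199 silent genes with a shared lowest value was 5.45 to 6.09 in the normals. In the tumors it was 0 to 2.49, with a median of 0. Outside the 5 tumors of high silent share it lay at the lowest value, so the level taken off there could not be read any lower.

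Lists of genes around the members were tested with the same fit. Of 111 genes in 5 lists of myelin, other Schwann cell genes, receptors, ligands and neuronal genes, 73 were measured, of which 42 were lower in tumors and 9 higher (all genes: 45.8% and 10.7%), and with samples centred on silent genes 0 were lower and 53 higher. S100B, PRPH and L1CAM, markers of Schwann cells and peripheral neurons, were not analysed here. MBP, a structural protein of myelin, was not called (-0.34, SE 0.28, limma adjusted p = 0.278).

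The myelin list had 15 measured genes, of which 4 were lower, 5 higher and 6 not called (all genes: 45.8% lower and 10.7% higher). With samples centred on silent genes, 0 were lower and all 15 higher. GJC3, a connexin of myelinating glia, was lower by -3.50 (SE 0.58, limma adjusted p = 2.79e-06), and MPDZ, a scaffold protein with PDZ domains, by -2.75 (adjusted p = 1.92e-05). MAL, a protein of myelin and of epithelial apical transport, was higher by 2.45 (SE 0.29, adjusted p = 3.11e-09), and so was MTMR2, a phosphatase linked to neuropathy with abnormal myelin folding, at 1.85 (adjusted p = 3.95e-07). Of the 199 silent genes, 170 had a more negative difference than GJC3 and 172 were higher in normals. The median difference of this list was 0.53, above the -0.84 of all genes.

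The list of other Schwann cell genes held 14 measured genes, of which 8 were lower, 2 higher and 4 not called (all genes: 45.8% lower and 10.7% higher). With samples centred on silent genes, 0 were lower and 10 higher. COL28A1, a collagen of peripheral glia, fell by 5.11 (SE 0.70, limma adjusted p = 7.07e-08) and GFAP, a filament of glia that Schwann cells without myelin also carry, by 4.98 (adjusted p = 5.89e-11). The silent genes had a median difference of -5.31 (most between -6.29 and -2.25), and COL28A1 lay within that span. GFAP was among the silent genes in both respects, since 125 of 199 had a more negative difference and 33 were higher in normals. ERBB3, the neuregulin receptor that Schwann cells share with urothelium, was higher by 2.24 (SE 0.22, adjusted p = 3.45e-11), with all 29 tumors above all normals. PTPRZ1, a receptor phosphatase of glia, was higher by 2.60 with an SE of 1.17 and an adjusted p of 0.0472.

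Of 8 genes of the receptor list, which holds the adaptor TRAF6 beside receptors and leaves out NGFR and GFRA3, 5 were lower and 1 was higher (all genes: 45.8% and 10.7%). GFRA2, the neurturin co-receptor, was lower by -5.98 (SE 1.01, limma adjusted p = 3.59e-06), and GFRAL, the receptor of GDF15, by -5.56 (SE 0.29, adjusted p = 2.89e-18). The difference of GFRA2 lay within the span of most silent genes, -6.29 to -2.25. In normals GFRAL stood 0.02 above the silent median, with 98 of 199 silent genes higher, and 65 had a more negative difference. SORT1, a sorting receptor that partners NGFR, was higher by 1.23 (adjusted p = 1.88e-05). Normal 4, at -1.89, lay far from the other normals, and without it the difference of SORT1 was under 2-fold. Of 8 ligand genes, 3 were lower and none higher (0 also at an unadjusted p under 0.05), among them GDNF at -3.50 (adjusted p = 0.00135) and NRTN, neurturin, at -2.68 (adjusted p = 0.00351). More negative differences were found in 170 of the 199 silent genes for GDNF and in 183 for NRTN, and 32 and 162 were higher in normals.

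Of 28 neuronal genes measured, 22 were lower in tumors, 1 higher and 5 not called (all genes: 45.8% lower and 10.7% higher), with a median difference of -3.13. Of 229 silent genes tested, 213 were lower, with a median of -5.17, and with samples centred on silent genes none of the neuronal genes was lower and 16 were higher, with a median of 2.07. SYT4, a synaptotagmin of neuronal vesicles, fell by 6.37 (SE 0.73, limma adjusted p = 2.07e-09) and ELAVL4, an RNA-binding protein of neurons, by 6.18 (adjusted p = 5.25e-10). Of the 199 silent genes, 8 had a more negative difference than SYT4 and 16 than ELAVL4, and 1 and 3 were higher in normals. UCHL1, a ubiquitin hydrolase abundant in neurons, was lower by -1.32 (SE 0.59, adjusted p = 0.0454). CHRNB4, a nicotinic receptor subunit, was higher by 2.50 (SE 0.55, adjusted p = 0.000143).

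Close relatives were counted in the same way, beside 45.8% lower and 10.7% higher over all genes. In the family of PLPPR4, 2 of 7 genes were lower and none higher, PLPPR5 at -5.73 and PLPPR1 at -5.37. Both differences lay within the span of most silent genes, -6.29 to -2.25. A list of relatives of the adhesion and tetraspan members, which also holds SOX8, SOX9 and AHNAK, had 11 measured genes. Of these, 6 were lower and 2, EMP2 and SOX9, were higher. Melanocyte genes, which share SOX10 with Schwann cells, were lower in 6 of 7, and natural killer cell genes, which share NCAM1, in 5 of 8, with none higher in either list or among the relatives of PLPPR4 by limma (0 also at an unadjusted p under 0.05). With samples centred on silent genes these counts turned, to 0 lower and 8 higher for natural killer cell genes and 0 and 4 for melanocyte genes. They were 0 and 5 for the family of PLPPR4, and 1 and 8 for the whole list that holds SOX8, SOX9 and AHNAK.

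**Figure D3:**
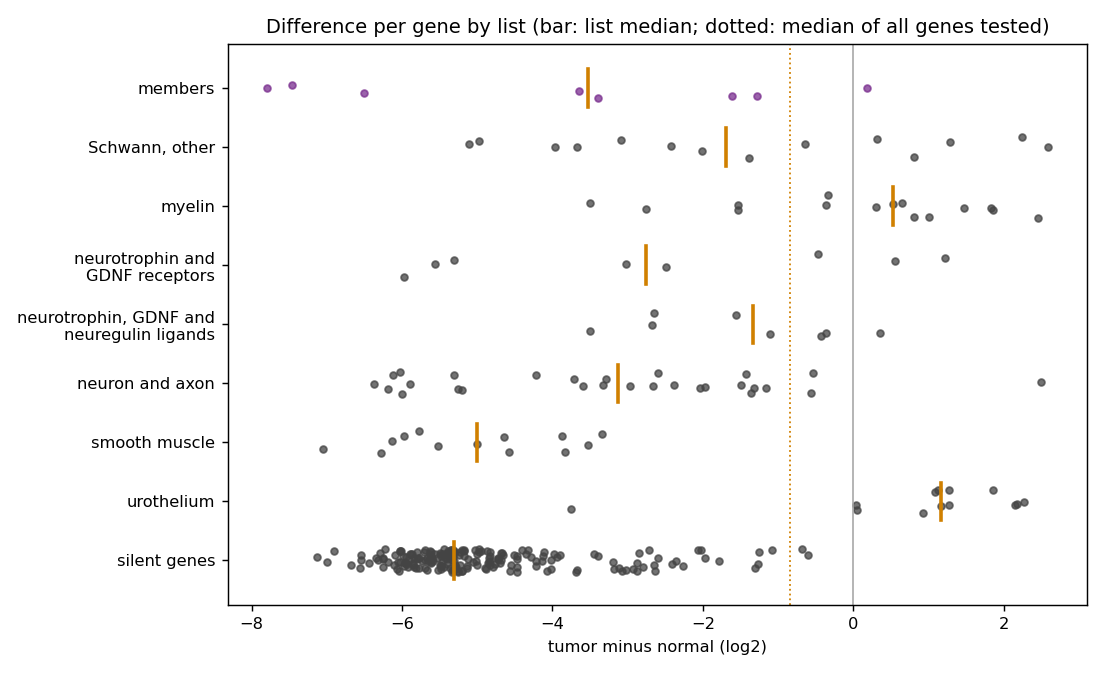
Difference between tumors and normals (log2, tumor minus normal) of each member and of each measured gene in the lists of other Schwann cell, myelin, receptor, ligand, neuronal, smooth muscle, urothelial and silent genes. Bars are list medians and the dotted line is the median of all genes (-0.84); silent genes (-5.31), smooth muscle markers (-5.00) and neuronal genes (-3.13) lie left of it, and urothelial markers (1.16) lie right of it.

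The variation among the 29 tumors was not used to choose the members, so it was tested. Each gene was fitted with limma on the mean z score of the markers of a cell type over the tumors, and all genes above their lowest value in at least 15 tumors entered each fit. With smooth muscle markers, 4 of the 8 members rose (2.41% of all genes did). NCAM1 had a slope of 1.44 ± 0.24 per unit of score (SE, limma adjusted p = 0.000486), a Pearson r of 0.743 (permutation p = 2e-05) and a Spearman rho of 0.505 (permutation p = 0.00612). PLPPR4 had a slope of 1.36 ± 0.30 (adjusted p = 0.00893), r of 0.639 and rho of 0.277 (permutation p = 0.00074 and 0.145). CDH19 had a slope of 1.52 ± 0.38 (adjusted p = 0.0223), r of 0.594 and rho of 0.365 (permutation p = 0.00093 and 0.0519).

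PMP22 had a slope of 0.85 ± 0.21 on the same score (limma adjusted p = 0.0183), with r of 0.606 and rho of 0.742 (permutation p = 0.00086 and 4e-05). The smooth muscle scores of tumors 29 and 15, 2.49 and 2.05, stood apart from the next, 0.97 in tumor 25. Without them r was 0.517 for NCAM1, 0.280 for CDH19 and 0.161 for PLPPR4, none of which passed (adjusted p = 0.0774, 0.441 and 0.686), and PMP22 alone still rose, with r of 0.638 and an adjusted p of 0.0102. The slope without them was 1.22 ± 0.39 for NCAM1, close to that over all tumors, 0.93 ± 0.62 for CDH19 and 0.37 ± 0.43 for PLPPR4, and it was higher for PMP22, at 1.36 ± 0.32. In tumors 29 and 15, NCAM1 stood at 3.47 and 3.61 and PLPPR4 at 5.27 and 4.48. Without the 5 tumors in which over 50% of silent genes were above their lowest value, PMP22 had a slope of 0.72 ± 0.23 and did not pass (adjusted p = 0.166), and the other 3 did.

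**Figure D4:**
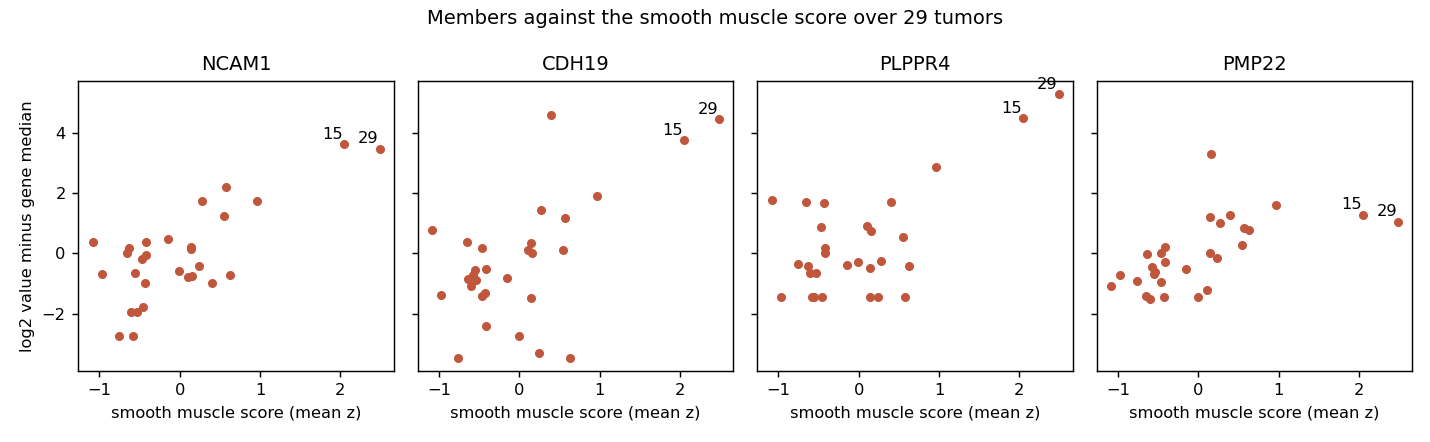
Values of NCAM1, CDH19, PLPPR4 and PMP22, the members that passed with this score, in the 29 tumors (log2, centred on the gene median). They are set against the smooth muscle score of the tumor (mean z of smooth muscle markers). Tumors 15 and 29, at 2.05 and 2.49, lie to the right of the others, and CDH19, NCAM1 and PLPPR4 are high in them.

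With fibroblast markers, PMP22 and NCAM1 rose (4.2% of all genes did). At an unadjusted limma p under 0.05, 4 members rose, CDH19 and PLPPR4 being the others. CDH19 had r of 0.396 (permutation p = 0.0332, limma adjusted p = 0.220, and 0.0192 to 0.482 over the alternatives). PLPPR4 had r of 0.359 (permutation p = 0.0548, limma adjusted p = 0.295). PMP22 had a slope of 1.03 ± 0.21 (SE, limma adjusted p = 0.00208), r of 0.669 and rho of 0.725 (permutation p = 0.00015 and 6e-05). NCAM1 had a slope of 1.17 ± 0.32 (adjusted p = 0.0294), r of 0.553 and rho of 0.429 (permutation p = 0.00189 and 0.0208). Leaving out tumors 25 and 23, the farthest in fibroblast score, gave r of 0.628 for PMP22, which passed, and of 0.463 for NCAM1, which did not (slope 1.06 ± 0.39, adjusted p = 0.192). Without the 5 tumors of high silent share, PMP22 had a slope of 0.93 ± 0.28 and did not pass (adjusted p = 0.0835). The smooth muscle and fibroblast scores were themselves related (r = 0.80), so the slopes on one are not apart from those on the other. No member passed with endothelial, urothelial or natural killer cell markers by limma, and none had an unadjusted limma p under 0.05. By rank, SOX10 had rho of -0.398 with natural killer cell markers (permutation p = 0.0337 before adjustment), with r of -0.354 (permutation p = 0.0602). Of all genes, 3.15% rose and 0.434% fell with endothelial markers, 1.36% and 2.96% with urothelial markers, and 1.92% and 0.117% with natural killer cell markers, while 0.15% fell with smooth muscle and 0.517% with fibroblast markers. On the share of silent genes above the lowest value no member passed either (1.21% of all genes rose and 0.0334% fell). PLPPR4 alone had an unadjusted p under 0.05 there, with r of 0.399 and rho of 0.540 (permutation p = 0.0307 and 0.00304, limma adjusted p = 0.380), and tumors 25, 14 and 17, which are among its 5 highest, are of high silent share.

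Of the 28 pairs of members, 8 had a permutation p under 0.05 for r before adjustment. The adjusted p of a pair depends on which of the genes is taken as the score, since it is adjusted over all genes fitted on that score. CDH19 and PLPPR4 passed both ways (r = 0.689, permutation p = 9e-05, limma adjusted p = 0.0229 on CDH19 and 0.0127 on PLPPR4; 0.161% and 0.211% of all genes rose with them). Their rho was 0.543 (permutation p = 0.00263). Without tumors 28 and 29, the farthest in CDH19, r was 0.585 and the pair did not pass on CDH19 (slope 0.51 ± 0.14, adjusted p = 0.297, against 0.57 ± 0.11 over all tumors). Without tumors 29 and 15, the farthest in PLPPR4, r was 0.476 and it did not pass on PLPPR4 (slope 0.69 ± 0.25, adjusted p = 0.317). Without the 5 tumors of high silent share the slope of PLPPR4 on CDH19 was 0.59 ± 0.13 (adjusted p = 0.0537) and that of CDH19 on PLPPR4 was 0.75 ± 0.18 (adjusted p = 0.0987, against 0.83 ± 0.16 over all tumors). With values raised to at least 3 log2 units above the lowest value, the pair passed on PLPPR4 (adjusted p = 0.00192) and not on CDH19 (slope 0.27 ± 0.06, adjusted p = 0.0687). CDH19 and NCAM1 passed with NCAM1 as the score alone (r = 0.631, rho = 0.540, permutation p = 0.00037 and 0.00303, limma adjusted p = 0.0269, against 0.0645 on CDH19), a score with which 0.6% of all genes rose. Without tumors 15 and 29, the farthest in NCAM1, their r was 0.418 and the pair did not pass (slope 0.59 ± 0.25 against 0.84 ± 0.19, adjusted p = 0.449), and without tumors 28 and 29, the farthest in CDH19, r was 0.703. On CDH19 the pair passed without the 5 tumors of high silent share (slope 0.65 ± 0.11, adjusted p = 0.0122) and with raised values (adjusted p = 0.0389).

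NCAM1 and PLPPR4 passed on NCAM1 alone (r = 0.60, rho = 0.368, permutation p = 0.00078 and 0.0505, limma adjusted p = 0.0475, against 0.105), and without tumors 15 and 29 r was 0.255 and the adjusted p was 0.662. That call was also lost without the mean-variance trend (slope 0.66, adjusted p = 0.0538), with the silent share as a further term (slope 0.61 ± 0.15, adjusted p = 0.0578) and without the 5 tumors of high silent share (slope 0.64 ± 0.16 against 0.66 ± 0.16, adjusted p = 0.0828). With raised values the pair passed both ways (adjusted p = 0.00999 on NCAM1 and 0.0268 on PLPPR4). SOX10 and GFRA3 passed on GFRA3 alone (r = 0.517, rho = 0.532, permutation p = 0.00387 and 0.00327, limma adjusted p = 0.0358, against 0.237), a score with which 7.03% of all genes rose, beside 0% with SOX10. That pair did not pass without tumors 18 and 8, the farthest in GFRA3 (r = 0.498, adjusted p = 0.0872), without the 5 tumors of high silent share (slope 0.98 ± 0.37 against 1.10 ± 0.34, adjusted p = 0.122) or with raised values (slope 0.32 ± 0.15, adjusted p = 0.196). NGFR had negative r with GFRA3 (-0.488) and with NCAM1 (-0.393), and neither passed with either gene as the score (2.46% of all genes fell with GFRA3, 0.0278% with NCAM1 and 0.00556% with NGFR). The r of PRX with the other members ran from -0.118 to 0.150. SOX10 and CDH19, both markers of the Schwann cell lineage, had r of -0.147 (permutation p = 0.447).

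**Figure D5:**
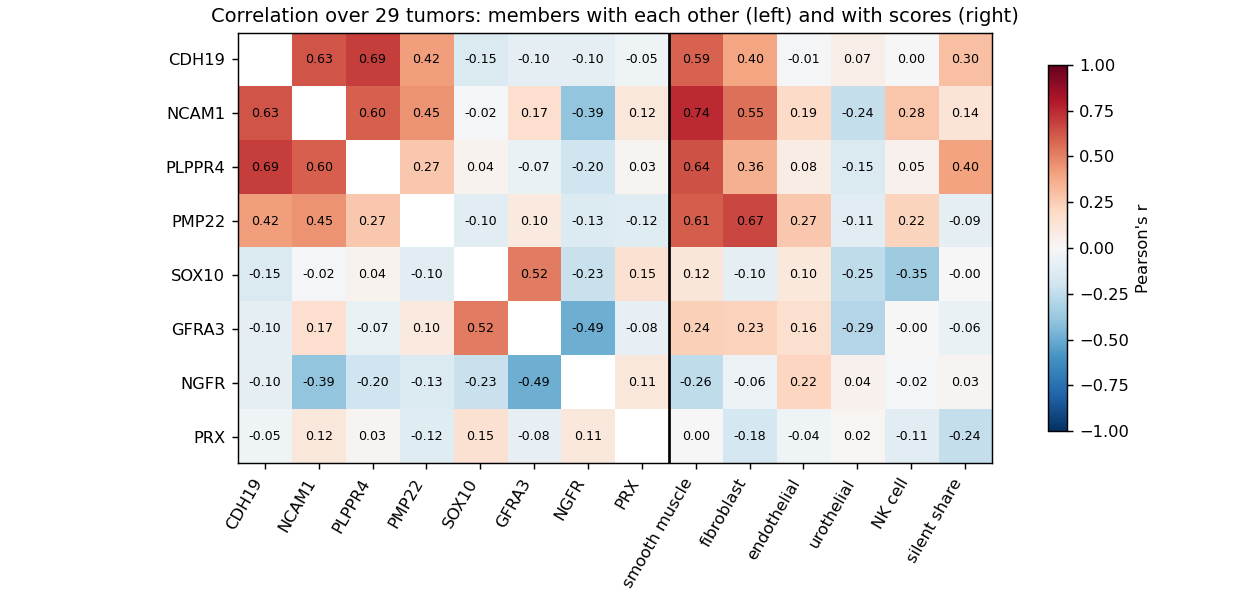
Pearson r over 29 tumors of each member with the other members (left) and with the 6 scores (right: smooth muscle, fibroblast, endothelial, urothelial and natural killer cell markers, and the share of silent genes above the lowest value), on a color scale from -1 to 1. CDH19, NCAM1 and PLPPR4 are the members most related to each other (r of 0.60 to 0.689), and SOX10 has an r of -0.147 with CDH19.

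The genes whose values over the 29 tumors were most like those of each member, by Pearson r among all genes with a symbol above the lowest value in at least 15 tumors, are given as a description. For CDH19 they were LRRTM4 (0.751), CDH8 (0.742), ADAMTS8 (0.737), RSPO1 (0.737) and PLPPR5 (0.731). For NCAM1 they were ADAMTS8 (0.805), MYH11 (0.799), the smooth muscle myosin heavy chain, MYOM1 (0.787), CLEC3B (0.786) and BVES (0.768). For PLPPR4 they included MYBPC1 (0.770), MYO18B (0.765), COL19A1 (0.752) and HMCN2 (0.733). ADAMTS8 appeared beside both CDH19 and NCAM1, while MYH11, MYOM1, MYBPC1 and MYO18B encode muscle proteins.

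PMP22 was closest to CERCAM (0.766), PDGFRL (0.757), ABCA9 (0.739), PDLIM3 (0.737) and TNC (0.726). NGFR was closest to PLCH2 (0.793), SYTL1 (0.745), HAS3 (0.721), KRT15 (0.718), a keratin of basal epithelial cells, and LPGAT1 (0.718). GFRA3 was closest to TECRL (0.889), NNMT (0.864), PNPLA5 (0.860), ZNF114 (0.857) and SAMD15 (0.838). SOX10 had its highest r with ZBTB43 (0.620), UPF3A (0.589), ATCAY (0.589), TFAP2C (0.586) and GCKR (0.583), and PRX with EXOSC5 (0.719), APPL1 (0.658), CDKN2AIPNL (0.636), C9orf40 (0.630) and COQ8A (0.595).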

How the data were processed

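RNA was isolated by the authors from 4 normal mucosa samples and 29 iUC biopsies, depleted of ribosomal RNA, sequenced as paired-end reads, aligned to CanFam 3.1 with COBWeb in Strand NGS 3.1 and quantified per annotated gene. The authors normalized the values by TMM and, separately, by DESeq, and deposited log2 values centred on each gene's median. These are not counts, so library totals are unknown and no count test was run. The commonest low step above the lowest value in a sample was taken as 1 read pair. Read pairs are thus estimates, and some values lay below or between whole pairs, such as CDH19 at 0.44 in tumor 20. The incomplete last line of each table was dropped. Samples were grouped by their labels.

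The TMM table was fitted by lmFit and trended eBayes (limma 3.58.1, R 4.3.3) over 24471 genes above the lowest value in at least 4 samples, and a call needed a Benjamini-Hochberg p of 0.05 or less with a 2-fold change. Within tumors, slopes on marker scores were fitted the same way, and two-sided permutation p came from 100000 resamples (smallest possible 1e-05), for 48 relations of members with scores and 28 pairs. Both kinds of fit were tested on simulated data. Python 3.11.15 with pandas 2.3.3 and scipy 1.17.1 was used. The members and lists were chosen with earlier results of these data known. Named genes are the 8 members, the 2 largest called falls and rises of each of the 5 nerve and Schwann lists, defining markers and the 5 genes most like each member, of which some are not reported here. PLPPR5, PLPPR1 and the counts of relatives were named after their values were seen. Alternatives were the table that the authors normalized by DESeq, other filters, a raised floor, other scalings, no trend, group weights, silent genes of 1 kind and samples left out. Those without 5 tumors of high silent share, and the contrast without tumors 15 and 29, were chosen after the data were seen. Chromosome positions and transcript lengths in the build of the files were not used here.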

Additional observations from a re-analysis of the deposited data

Results flagged for a closer look

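Among 26 genes, the 8 members and 18 named genes of the lists, 2 had a normal far from the other 3 (the gap to its neighbor, over the range of the 4, passed Dixon's critical value). GFRAL stood at 6.48 in 1 normal, with a gap of 0.907 of the range, and SORT1 stood at -1.89 in 1 normal, with a gap of 0.857. Chance alone gives such a gap in about 1 of 20 groups.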

How the results depend on the processing

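No paired analysis was possible, since the normals came from dogs without bladder disease and each tumor from a different dog. Limits of these values are the 4 normals, the few read pairs behind SOX10 and the tumor values, and a difference between the groups that silent genes show as well. Over all genes, 11206 genes were lower and 2615 higher. The lower count was 5981 with genes above the lowest value in at least 15 samples, 7423 with values raised to at least 3 log2 units above it, and 164 when samples were centred on silent genes. The higher count was 1377 in the DESeq table and 21222 with silent centring. Under silent centring the other nerve genes had 0 lower and 53 higher, and the members 2 lower and 5 higher, with SOX10 at 1.80, NGFR at 3.58, PMP22 at 1.56 and GFRA3 at 3.93. PRX was -0.12 in the DESeq table. The silent genes other than olfactory receptors had a median difference of -3.96 over the 52 of 78 with a shared lowest value, and one nearer to 0 over all that were tested. Of the members, 1 rose with smooth muscle (4 before) and 1 with fibroblast markers (2 before) without the 2 farthest tumors, and 1 with fibroblast markers without the 5 tumors of high silent share. The share of calls that were lower was 81.1%, and it was 89.7% in the DESeq table, 69.7% with the stricter filter, 74.3% with raised values and 0.767% with silent centring. The cause of these shifts was not tested.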
